A study of Mus musculus with 4 samples.

Results

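Interferon response and antigen presentation genes were examined as a list of 44 named genes in cultured mouse bladder epithelium with and without p63. Members were taken by symbol: a gene was used where the platform annotation gave its symbol alone to a transcript cluster, the array's gene-level group of probes. A total of 32 of the 44 genes met this rule, out of 14860 genes with a symbol of their own among 23332 clusters. Another 7 (Eif2ak2, Ifit3, Oas1a, Oas3, H2-K1, H2-D1 and Ciita) lie only on clusters that carry several symbols, so no value is given for them. The remaining 5 (Isg15, Usp18, Ifi44, Xaf1 and Nlrc5) were not analysed here.

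The tested cultures were p63 KO colonies, 2 arrays, and the controls were wild-type colonies, 2 arrays, all on the C57BL/6j background. Both came from newborn bladders digested with collagenase and were grown on 3T3 cells, a mouse fibroblast line that serves as feeder layer. Colonies were picked for total RNA, and each sample was hybridised to 1 Affymetrix mouse exon array. The deleted part of the p63 gene (Trp63), the number of animals and the sex of the pups are not stated, so the spread between arrays may be technical. Feeder cells are also of mouse, and in picked colonies fewer cells of a type and less RNA per cell cannot be told apart.

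Interferons are secreted when cells sense viral nucleic acid through RNA sensors such as those encoded by Ddx58 and Ifih1 or through DNA sensors. Type I and type III interferons signal through JAK kinases to a complex that holds STAT2 and IRF9, which binds the interferon-stimulated response element (ISRE) and turns on antiviral genes, while interferon gamma acts through the gamma-activated site (GAS). Interferons also raise the immunoproteasome, the TAP peptide transporter and class I molecules, which display peptides to T cells. Epithelia keep a low tonic level of many of these genes and can raise them sharply when stimulated.

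Trp63 was at 4.60 and 4.74 log2 units in p63 KO colonies, against 8.98 and 8.99 in wild-type colonies, a log2 difference of -4.32 (limma adjusted p = 0.0153). Array medians lay between 5.08 and 5.13, and the lower quartiles were 4.06 and 4.06 on the p63 KO arrays, against 3.80 and 3.82 on the wild-type arrays. Over all clusters the median log2 difference was 0.12, and 0.0029 after quantile normalization, so differences are best read against that shift. The p63 KO arrays correlated with each other at 0.932 and the wild-type arrays at 0.977. The Y-linked gene Eif2s3y was at 3.58 and 3.02 in p63 KO, against 7.43 and 8.11 in wild type (adjusted p = 0.0385), and Kdm5d, also Y-linked, at 3.78 and 3.79, against 5.54 and 5.88 (adjusted p = 0.0577). On these 4 arrays that sex-linked difference runs with the genotype, so in the results below it cannot be told apart from the loss of p63. Olfactory receptor genes, mostly silent outside the nose, gave a yardstick for low values: the 95th percentile of their 719 clusters was 5.08 log2 units. This is close to the median of all clusters, so values below it are low but need not mean that a gene is off.

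None of the 32 measured genes passed the test, while 0.527% of all clusters did, 0.141% as higher and 0.386% as lower in p63 KO (limma with Benjamini-Hochberg adjustment over 23332 clusters, adjusted p under 0.05). At an unadjusted p under 0.05 there were 3 genes, Bst2 and Isg20 with higher values and Parp14 with lower values in p63 KO. That is 9.38% of the list, against a background of 22.3% of all clusters, 14.6% higher and 7.7% lower. The median log2 difference of the list was 0.08, against 0.12 for all clusters and 0.08 for all genes with a symbol of their own. It was above 0 for 22 genes, and above 0 for 60.3% of all clusters. For 27 of the 32 genes the difference was under 0.5 in size (84.4%, against 64.9% of all clusters), and it was 1 or more for 2 genes (6.25%, against 11.5%). Among all genes with a symbol of their own these shares were 71.9% and 7.17%, the latter close to that of the list.

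Both p63 KO values lay above both wild-type values for 14 genes and below them for 2, in all 50% of the list against a background of 57.1%. The shares, 43.8% and 6.25%, stand against backgrounds of 36.2% and 20.9% of all clusters. After quantile normalization the split was 13 and 5, with backgrounds of 26% and 25.8%, and the added genes below were Irf1, Ifit1 and Mx1. A split of this kind therefore moves with the scaling of the arrays. With 2 arrays a group, the 95% intervals of the 32 differences had a median half-width of 0.53 log2 units, and values within that width cannot be told from no difference.

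**Figure D1:**
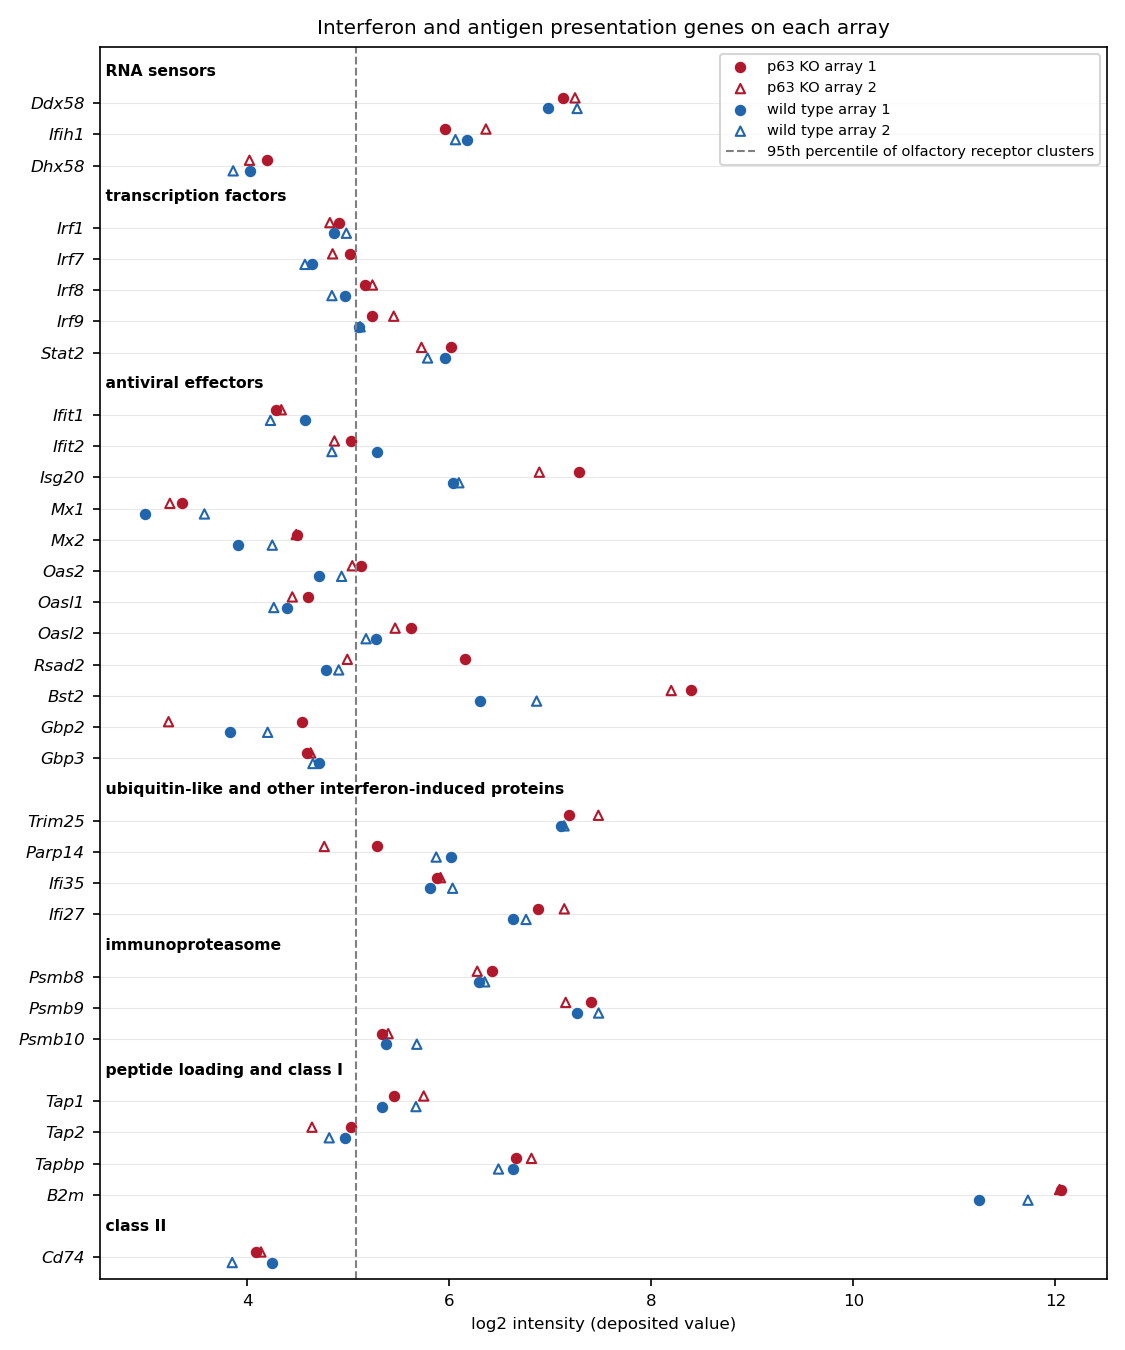
Log2 intensity of each of the 32 measured genes on each array, grouped by role. Red marks are p63 KO and blue marks wild type, circles are array 1 and triangles array 2, and the dashed line is the 95th percentile of olfactory receptor clusters (5.08). The red and blue marks are clearly apart for Bst2 and Isg20 and, with the red marks lower, for Parp14, while for 16 genes the groups overlap.

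Bst2 had the largest difference in the list. It encodes tetherin, a membrane protein that holds budding enveloped virus particles at the cell surface. Bst2 was at 8.39 and 8.20 in p63 KO colonies, against 6.31 and 6.87 in wild-type colonies. The groups were clearly separate, and the gap between them was wider than the spread within either. Its log2 difference was 1.71 (95% interval 1.00 to 2.41), a 3.27-fold higher level, with a limma adjusted p of 0.0871, which misses the threshold. Over the 10 alternative settings the difference stayed between 1.43 and 1.99 and the adjusted p between 0.0612 and 0.475.

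The Bst2 promoter is printed because it belongs to the gene with the largest difference and holds both interferon motifs. It covers 250 bases before to 50 bases after the RefSeq gene start (GRCm38.p6, chr8:71537423-71537722, minus strand), and capitals mark a run of matches to GAS (TTCNNNGAA) and to the ISRE core (GAAA, any 2 bases, GAAA).
Bst2: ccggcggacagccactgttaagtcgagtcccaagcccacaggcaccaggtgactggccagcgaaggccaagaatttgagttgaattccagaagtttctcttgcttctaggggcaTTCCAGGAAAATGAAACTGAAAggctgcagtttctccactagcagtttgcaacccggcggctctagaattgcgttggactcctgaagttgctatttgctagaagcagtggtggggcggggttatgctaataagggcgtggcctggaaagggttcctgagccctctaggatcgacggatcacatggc
Counted from 1 at the 5′ end, the GAS match starts at 115 and the ISRE core matches start at 121 and 127, and all 3 overlap with a neighbour.

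Isg20 was next in size. It encodes an exonuclease that degrades RNA of some viruses. Isg20 was at 7.28 and 6.89 in p63 KO, against 6.04 and 6.10 in wild type. Both knockout arrays were higher, with the wild-type pair close together. The log2 difference was 1.02 (95% interval 0.45 to 1.59), or 2.03-fold, and the adjusted p was 0.117. RefSeq gives 3 start windows for Isg20, none with an ISRE core match, and the upstream one holds a GAS match at position 178 (capitals; GRCm38.p6, chr7:78913174-78913473, plus strand).
Isg20: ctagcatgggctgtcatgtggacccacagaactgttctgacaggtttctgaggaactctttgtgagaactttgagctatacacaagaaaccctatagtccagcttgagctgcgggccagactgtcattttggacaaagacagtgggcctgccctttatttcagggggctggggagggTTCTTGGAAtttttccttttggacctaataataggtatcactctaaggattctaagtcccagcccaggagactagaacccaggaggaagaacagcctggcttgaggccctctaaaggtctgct

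Promoters were in the RefSeq table for 24 of the 32 genes. The ISRE core, searched on both strands, was found for 9 of the 24 (37.5%), against 3.99% of all 27025 genes in the table and 3.44% of all 32851 windows. The stretches that carry the matches are shown so that the letters can be set beside the expression values. Capitals mark the matches, each stretch has up to 10 bases on either side, and the coordinates are of GRCm38.p6.
Bst2, chr8:71537577-71537612, minus strand: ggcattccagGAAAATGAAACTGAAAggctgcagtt
Rsad2, chr12:26456553-26456582, minus strand: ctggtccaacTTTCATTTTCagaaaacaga
B2m, chr2:122147538-122147567, plus strand: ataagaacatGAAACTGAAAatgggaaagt
Ddx58, chr4:40239804-40239833, minus strand: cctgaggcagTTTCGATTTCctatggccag
Ifih1, chr2:62646206-62646233, minus strand: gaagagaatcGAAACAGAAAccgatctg
Stat2, chr10:128270266-128270295, plus strand: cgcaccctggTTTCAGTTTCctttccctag
Gbp3, chr3:142559989-142560024, plus strand: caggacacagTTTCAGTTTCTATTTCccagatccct
Ifit1, chr19:34640775-34640823, plus strand: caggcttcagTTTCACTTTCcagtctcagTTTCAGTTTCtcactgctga
Gbp2, chr3:142620594-142620623, plus strand: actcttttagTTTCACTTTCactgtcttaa
The log2 differences of these 9 genes ran from -0.14 to 1.71 with a median of 0.04, while those of the 15 genes without a match ran from -0.16 to 1.02 with a median of 0.18. Bst2, Rsad2 and B2m thus stood beside 6 genes with the motif and small estimates: Ddx58, Ifih1, Stat2, Gbp3, Ifit1 and Gbp2 lay between -0.14 and 0.07. The 95% intervals of these 6 were wide, from -0.51 to 0.36 for Gbp3 and from -1.49 to 1.22 for Gbp2. Gbp3, Ifit1 and Gbp2 also had group means below 5.08. The part of the motif in these differences was not tested. GAS matches were found for 7 of the 24 genes (29.2%), against 9.55% of all genes in the table. Besides Bst2 and Isg20 these were Ifi35, Ifit2, Irf1, Irf8 and Psmb8.

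Of all 12 measured antiviral effectors, Bst2 and Isg20 included, 0 passed and the median log2 difference was 0.23. Both p63 KO values lay above both wild-type values for 7 of them (58.3%, against 36.2% of all clusters), and below for Gbp3 alone (8.33%, against 20.9%). Rsad2 encodes viperin, an enzyme that makes a nucleotide that stops viral RNA synthesis. Rsad2 was at 6.16 and 4.99 in p63 KO, against 4.78 and 4.91 in wild type. Only p63 KO array 1 stood apart, and the 95% interval of its log2 difference of 0.73 ran from -0.45 to 1.92 (adjusted p = 0.387). Without p63 KO replicate 1 the difference was 0.15, and without p63 KO replicate 2 it was 1.31. The Rsad2 promoter is printed because its difference is among the 4 largest without overlap in the list; its ISRE core match, in capitals, starts at position 131 (GRCm38.p6, chr12:26456403-26456702, minus strand).
Rsad2: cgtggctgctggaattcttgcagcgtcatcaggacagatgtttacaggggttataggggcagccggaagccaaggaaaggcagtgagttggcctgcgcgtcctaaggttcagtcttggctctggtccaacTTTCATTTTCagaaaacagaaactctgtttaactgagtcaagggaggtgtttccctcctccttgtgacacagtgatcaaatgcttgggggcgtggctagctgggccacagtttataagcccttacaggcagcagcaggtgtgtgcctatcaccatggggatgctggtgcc

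The IFIT proteins bind viral RNA that lacks the host cap structure. Ifit1 was at 4.28 and 4.34 in p63 KO, against 4.57 and 4.23 in wild type, and Ifit2 at 5.03 and 4.86, against 5.28 and 4.84. The groups overlapped for both genes, whose log2 differences were -0.09 and -0.11. The Mx genes encode dynamin-like GTPases that block virus replication, and in C57BL/6 and many other inbred mouse strains Mx1 carries a disabling deletion. Mx1 was at 3.36 and 3.24 in p63 KO, against 2.99 and 3.58 in wild type. Mx2 was at 4.49 and 4.49, against 3.91 and 4.25, with no overlap, a log2 difference of 0.41 and an adjusted p of 0.309. The difference of Mx2 was 0.23 after quantile normalization and 0.22 after cyclic loess, and that of Mx1, 0.01 as deposited, was -0.39 under either. Olfactory receptor clusters, also dim, had medians of 3.35 and 3.34 on the p63 KO arrays, against 2.89 and 2.80 on the wild-type arrays. All 4 of these genes had group means below 5.08.

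The OAS family makes the 2-5A signal that activates the nuclease RNase L, and Oasl1 and Oasl2 encode related proteins. Oas2 was at 5.13 and 5.04 in p63 KO, against 4.71 and 4.94 in wild type. Oasl1 was at 4.60 and 4.45, against 4.39 and 4.27, and Oasl2 at 5.63 and 5.47, against 5.28 and 5.18. The 3 genes shared one ordering, with both knockout values above both wild-type values, but their log2 differences were small, 0.26, 0.20 and 0.32 (adjusted p = 0.438, 0.539 and 0.35). Oasl1 overlapped after quantile normalization, with a difference of 0.05, and after cyclic loess. The guanylate-binding proteins attack vacuoles that hold intracellular pathogens. Gbp3 was at 4.59 and 4.63, against 4.72 and 4.65, a log2 difference of -0.07, and of -0.19 after quantile normalization. Gbp2 was at 4.54 and 3.22, against 3.83 and 4.20, so that the p63 KO pair straddled the wild-type pair.

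Parp14 was the gene with the lowest difference. It encodes an ADP-ribosyltransferase linked to STAT signalling and antiviral defence. Parp14 was at 5.28 and 4.76 in p63 KO, against 6.01 and 5.87 in wild type. The groups did not overlap, and the log2 difference was -0.92 (95% interval -1.58 to -0.26), a 1.89-fold lower level with an adjusted p of 0.158. Without p63 KO replicate 1 its difference was -1.18 and without p63 KO replicate 2 it was -0.66, so it kept its sign. No setting brought it past the threshold, with adjusted p from 0.0872 to 0.599.

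Of the other 3 interferon-induced proteins of this kind, Trim25 and Ifi27 had both p63 KO values above both wild-type values, and Ifi35 overlapped. Of all clusters 36.2% had both p63 KO values above. Trim25 encodes a ubiquitin ligase that acts with the sensor RIG-I. It was at 7.19 and 7.48 in p63 KO, against 7.11 and 7.14 in wild type, a log2 difference of 0.21. Ifi27 was at 6.88 and 7.14, against 6.63 and 6.76, a log2 difference of 0.31 (adjusted p = 0.393). Ifi35 was at 5.88 and 5.91, against 5.81 and 6.03.

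**Figure D2:**
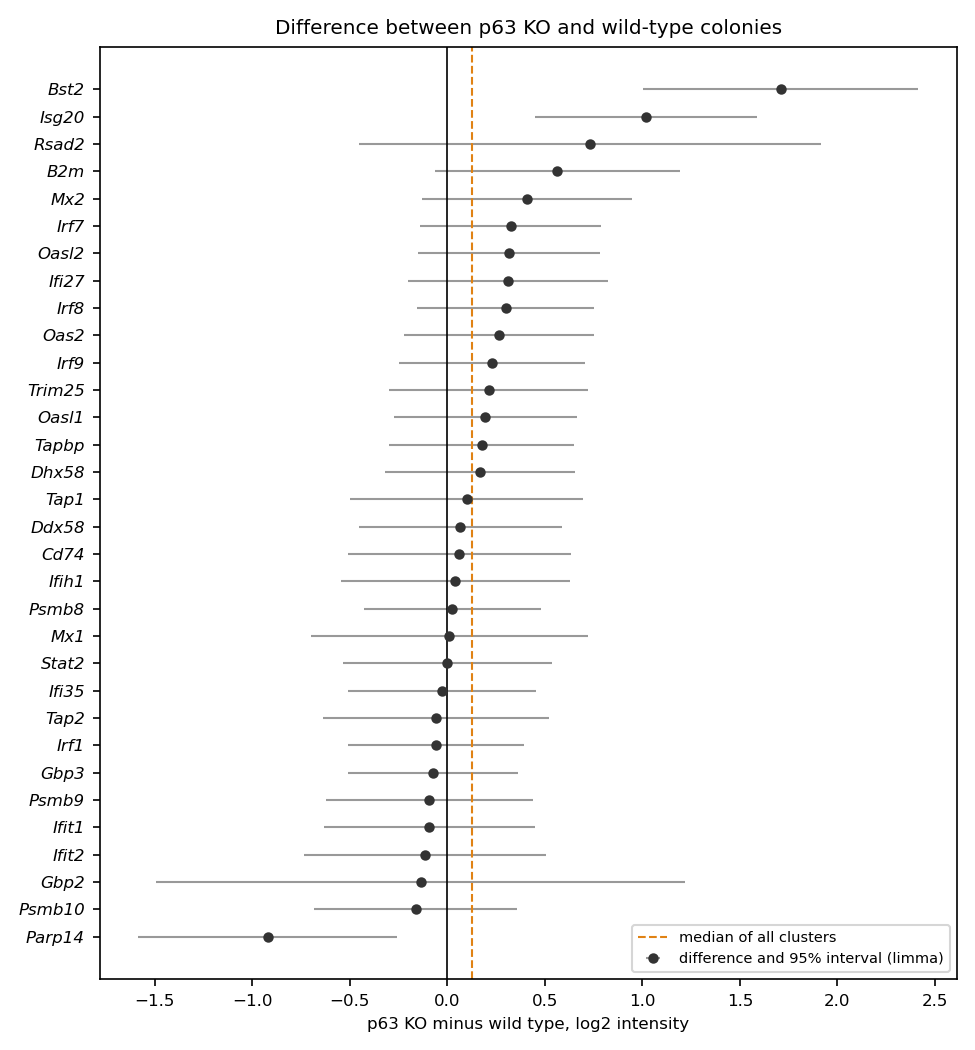
Difference of p63 KO minus wild type in log2 intensity for each of the 32 genes (points), with the 95% interval from limma (lines), sorted from highest to lowest. The solid line is 0 and the dashed line is the median of all clusters (0.12). The intervals of Bst2, Isg20 and Parp14 leave out 0 before adjustment for multiple tests, and those of the other 29 genes include it.

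The RNA sensors had overlapping groups. Ddx58, which encodes RIG-I, was at 7.13 and 7.25 in p63 KO, against 6.98 and 7.27 in wild type, a log2 difference of 0.07 (95% interval -0.45 to 0.59). Ifih1, which encodes the long double-stranded RNA sensor MDA5, was at 5.95 and 6.36, against 6.18 and 6.06, a difference of 0.04 (95% interval -0.55 to 0.63). Dhx58, which encodes LGP2, a regulator of both sensors, was at 4.20 and 4.02, against 4.03 and 3.86, a difference of 0.17 that was -0.07 after quantile normalization. The 3 adjusted p-values ran from 0.609 to 0.93.

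Among the transcription factors 0 of 5 passed. Stat2, part of the complex that carries type I interferon signals, was at 6.02 and 5.73 in p63 KO, against 5.96 and 5.79 in wild type, with equal group means of 5.87. Irf9, its DNA-binding partner, was at 5.23 and 5.45, against 5.11 and 5.12, a log2 difference of 0.23 with no overlap. Irf7, which amplifies type I interferon production, was at 5.02 and 4.85, against 4.64 and 4.57, a log2 difference of 0.32. Irf8, best known from myeloid cells, was at 5.17 and 5.24, against 4.97 and 4.84, a log2 difference of 0.30. Irf1, induced by interferon gamma, overlapped at 4.91 and 4.82, against 4.86 and 4.98. The 3 factors without overlap were all higher in p63 KO (60% of the 5, against 36.2% of all clusters). Their limma adjusted p-values were 0.485, 0.34 and 0.363, and all 5 intervals included 0.

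Of the 8 measured antigen presentation genes 0 passed. B2m and Tapbp had both p63 KO values above both wild-type values, as did 36.2% of all clusters. The immunoproteasome subunits replace the standard catalytic subunits and favour peptides that fit class I molecules. Psmb8 was at 6.42 and 6.28 in p63 KO, against 6.30 and 6.35 in wild type. Psmb9 was at 7.40 and 7.15, against 7.26 and 7.48, and Psmb10 at 5.33 and 5.40, against 5.38 and 5.68. The groups overlapped for all 3 subunits, and their log2 differences of 0.03, -0.09 and -0.16 were smaller than the gap between the arrays of at least 1 group for each.

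Tap1 and Tap2 encode the transporter that carries peptides into the endoplasmic reticulum, and Tapbp encodes tapasin, which loads them. Tap1 was at 5.46 and 5.75 in p63 KO, against 5.34 and 5.67 in wild type, and Tap2 at 5.02 and 4.64, against 4.97 and 4.81. Tapbp was at 6.66 and 6.81, against 6.64 and 6.49, a log2 difference of 0.17 with no overlap. The adjusted p-values of these 3 genes lay between 0.585 and 0.897.

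B2m encodes beta-2 microglobulin, the light chain that every class I molecule needs. It was at 12.06 and 12.04 in p63 KO, against 11.24 and 11.73 in wild type. Both p63 KO arrays were higher, and wild type array 1 was the lowest. The log2 difference was 0.56 (95% interval -0.06 to 1.19, adjusted p = 0.255), a ratio of 1.48. Leaving out wild type replicate 1 gave 0.32 and leaving out wild type replicate 2 gave 0.81. Cd74, the invariant chain that guides class II molecules, was at 4.09 and 4.14, against 4.25 and 3.85, with overlapping groups and means below 5.08; its difference was 0.06, and -0.16 after quantile normalization.

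**Figure D3:**
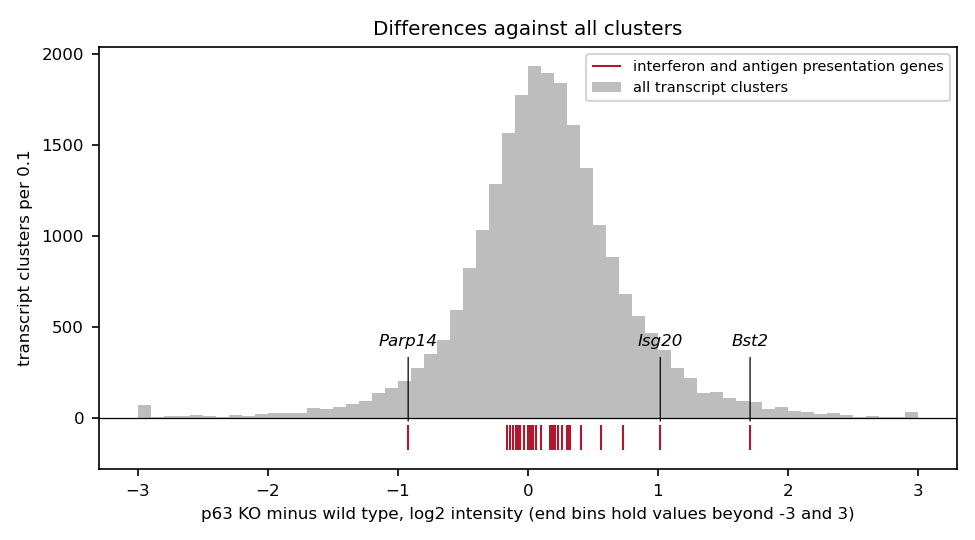
Histogram of the p63 KO minus wild type log2 difference over all 23332 clusters (grey bars, clusters per 0.1), with a red tick below the axis for each of the 32 genes. Most ticks lie between -0.2 and 0.5 under the centre of the histogram, with Bst2 and Isg20 to the right and Parp14 to the left.

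Gaps of over 1 between the arrays of a group were found in 2 genes of the list. Of all clusters 11.5% had such a gap between the p63 KO arrays and 4.43% between the wild-type arrays. Rsad2 and Gbp2 differed by 1.17 and 1.32 between the p63 KO arrays, both higher on array 1, and no other gene of the list differed by over 1 within a group. The median absolute gap between replicate arrays was 0.16 for the list in p63 KO and 0.16 in wild type, against 0.31 and 0.18 for all clusters. The highest of the 4 values was on p63 KO array 1 for 14 genes, on p63 KO array 2 for 7. It was on wild type array 1 for 5 and on wild type array 2 for 6. The same count over all clusters is not given here, so these numbers cannot be called a trait of the list.

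**Figure D4:**
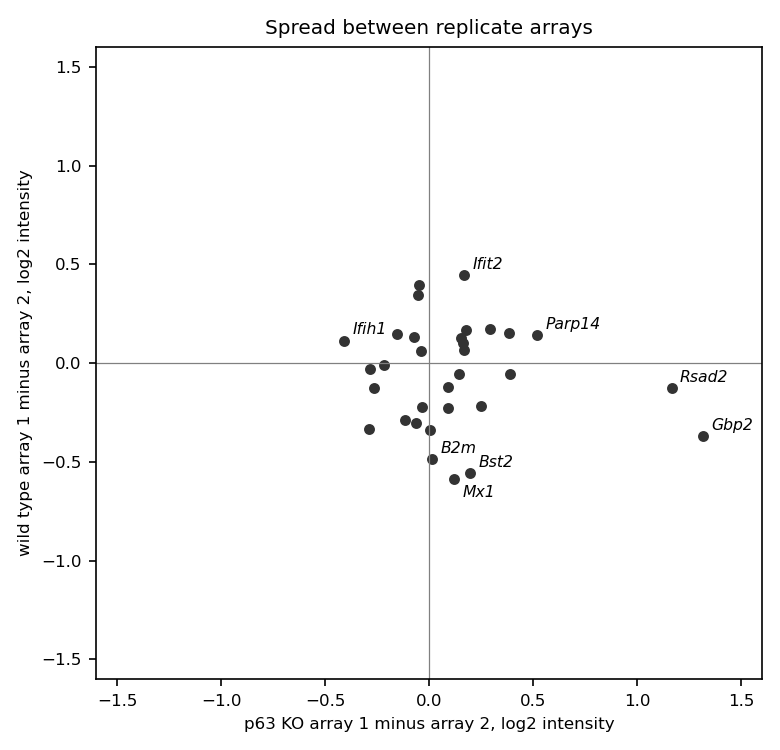
Each point is 1 of the 32 genes, with array 1 minus array 2 of p63 KO across and of wild type up, both in log2 units on the same scale. Rsad2 and Gbp2 lie far to the right at 1.17 and 1.32, and the other genes lie within 0.6 of 0 in both directions.

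Other genes of the pathways were read from 6 lists of 115 measured genes, of which 1 passed, while 0.527% of all clusters did. The Schlafen, IFI200 and interferon alpha families hold close relatives whose signals probes may share, so values of single members are uncertain. Slfn5, a Schlafen family gene induced by interferon, was at 3.22 and 3.14 in p63 KO, against 5.46 and 5.49 in wild type. It fell in p63 KO by a log2 difference of -2.29 (95% interval -2.73 to -1.86), or 4.91-fold, with a limma adjusted p of 0.0341. The difference lay between -2.52 and -2.25 in every alternative. With 0 clusters passing in each of these fits, the call was lost under the replicate block (adjusted p = 0.137) and without any 1 of the 4 arrays: without p63 KO replicate 1 (0.0753) or 2 (0.0804) and without wild type replicate 1 (0.424) or 2 (0.382). The call on Trp63 was lost in the same 5 fits.

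Of the 47 other interferon-stimulated genes 0 rose, Slfn5 fell and 46 did not pass, with a median log2 difference of 0.24. At an unadjusted limma p under 0.05 there were 13 genes with higher and 4 with lower values in p63 KO, or 36.2% of the list. The background was 22.3% of all clusters, 14.6% higher and 7.7% lower. Ido1, which degrades tryptophan, was at 4.14 and 3.92 in p63 KO, against 5.75 and 5.56 in wild type (log2 difference -1.63, adjusted p = 0.0654). Ifi205, of the IFI200 family of nuclear proteins, was at 5.89 and 6.25, against 4.70 and 4.82 (log2 difference 1.31, adjusted p = 0.0912). Differences of the list ran both ways, from -2.29 to 1.31, but 13 of the 17 genes under that unadjusted p were higher in p63 KO. Of all 47 differences 29 were above 0 (61.7%, against 60.3% of all clusters). Ifitm3, which blocks entry of enveloped viruses, was at 12.10 and 11.59, against 11.44 and 11.51 (log2 difference 0.37, adjusted p = 0.417).

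None of 9 interferon genes passed, and 7 of them had both group means below 5.08. Ifnb1 was at 3.91 and 4.30 in p63 KO, against 3.71 and 3.61 in wild type, and Ifnk, an interferon of keratinocytes, at 3.85 and 4.01, against 3.09 and 3.02 (adjusted p = 0.302 and 0.11). Ifna11 was at 1.83 and 2.34, against 1.57 and 1.64. Ifna14 was at 6.88 and 5.40, against 6.26 and 6.26, with the p63 KO arrays on either side of wild type. For Ifnb1, Ifnk and Ifna11 the knockout values were the higher ones, at levels in the range of silent genes. The lower quartile of the whole array was also higher in p63 KO, and the part of that shift in these differences was not tested.

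None of 16 receptors, kinases and STATs passed, with 5 genes on each side without overlap (31.2% higher and 31.2% lower, against 36.2% and 20.9% of all clusters) and a median log2 difference of 0.02. The kinases Jak2 and Jak1 had differences of opposite sign. Jak2, which serves the interferon gamma receptor and many cytokine receptors, was at 7.96 and 8.22 in p63 KO, against 7.31 and 7.24 in wild type (log2 difference 0.82, adjusted p = 0.13). Jak1, shared by all interferon receptors, was at 7.95 and 8.38, against 8.92 and 8.66 (log2 difference -0.63, adjusted p = 0.228). Il10rb, a subunit of the type III interferon and IL-10 receptors, was at 6.04 and 5.87, against 6.53 and 6.68 (log2 difference -0.64, adjusted p = 0.165). Socs3, a feedback inhibitor of JAK signalling, was at 4.44 and 5.46, against 4.05 and 3.51 (log2 difference 1.18, adjusted p = 0.223), with a wide gap between the p63 KO arrays.

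None of 19 genes of nucleic acid sensing and interferon induction passed. Aim2, a cytosolic DNA sensor of the inflammasome, was at 6.33 and 6.40 in p63 KO, against 7.54 and 7.89 in wild type (log2 difference -1.35, adjusted p = 0.0845). Tlr4, the receptor for bacterial lipopolysaccharide, was at 6.90 and 7.18, against 6.31 and 6.05 (log2 difference 0.86, adjusted p = 0.142). For both genes the groups did not overlap, and the gap between them was wider than that between replicate arrays. Tlr7, an endosomal RNA sensor, was at 3.42 and 3.34, against 2.83 and 2.80, and Tbk1, the kinase that activates IRF3, at 7.35 and 7.37, against 7.43 and 7.40.

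Of 12 other class I presentation genes 0 passed, and the median log2 difference was -0.14. Without overlap, 3 genes were higher in p63 KO (25%, against 36.2% of all clusters) and 4 were lower (33.3%, against 20.9%), and 8 of the 12 differences were below 0. Calr, calreticulin, was at 9.23 and 9.24 in p63 KO, against 8.77 and 8.70 in wild type, and Pdia3, its thiol oxidoreductase partner, at 10.24 and 10.37, against 9.72 and 9.88 (adjusted p = 0.195 and 0.209). Canx, calnexin, was at 11.23 and 11.35, against 10.98 and 11.07. These were the 3 genes with both p63 KO values above wild type. Mr1, which presents vitamin B metabolites to MAIT cells, was at 7.20 and 7.29, against 8.06 and 7.99 (log2 difference -0.78, adjusted p = 0.119), and was 1 of the 4 with both below.

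None of 12 other class II and co-stimulation genes passed. H2-Ab1, a class II beta chain, was at 4.38 and 4.12 in p63 KO, against 5.82 and 4.67 in wild type (log2 difference -0.99, adjusted p = 0.277). Wild type array 1 alone was high. Cd80, a co-stimulatory ligand for CD28, was at 7.24 and 7.12, against 6.04 and 6.54 (log2 difference 0.89, adjusted p = 0.162). Cd86, the other such ligand, was at 2.95 and 3.20, against 2.53 and 2.47, and Lgmn, a lysosomal protease, at 7.24 and 7.71, against 7.26 and 6.89.

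**Figure D5:**
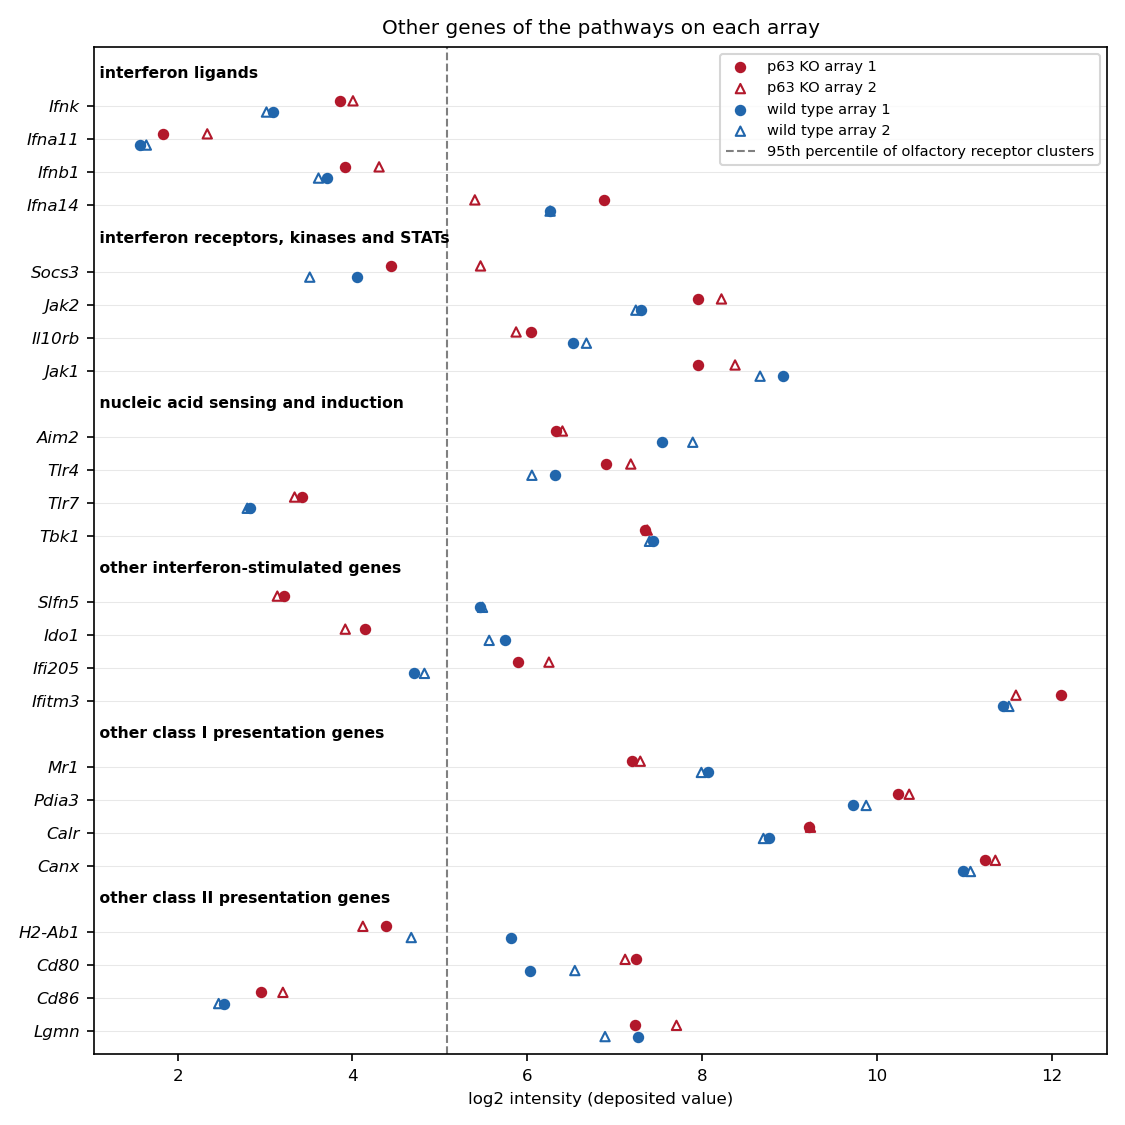
Log2 intensity on each array of the genes named from the 6 lists of other pathway genes, with red for p63 KO, blue for wild type, circles for array 1 and triangles for array 2; the dashed line is at 5.08. Slfn5, Ido1 and Aim2 have red marks well to the left of the blue ones, and Ifi205, Jak2 and Tlr4 have them to the right.

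Markers of other cells that respond to or present antigen were measured beside these genes. Of 20 leukocyte markers 0 passed and 18, Ptprc, Csf1r and Cd3e among them, had both group means below 5.08. Their summed linear intensity was 774 and 677 in p63 KO, against 798 and 797 in wild type. The order of the groups hung on Cd53, which was left out of a further sum after seeing the data. That sum was 711 and 592 in p63 KO, against 501 and 433 in wild type. Cd68 was its brightest marker and the only one with a group mean above 5.08. Olfactory receptor clusters, also at low levels, had higher medians in p63 KO too, 3.35 and 3.34, against 2.89 and 2.80 in wild type. The part of that shift in the leukocyte values was not tested. Of the 20 markers 16 had a positive difference, with a median of 0.33, and without overlap 9 were higher and 4 lower in p63 KO (45% and 20%, against 36.2% and 20.9% of all clusters). The markers with a group mean above 5.08 were Cd68, at 8.58 and 8.12 in p63 KO, against 7.68 and 7.26 in wild type, and Cd53, at 5.97 and 6.40, against 8.21 and 8.51 (adjusted p = 0.181 and 0.0634). Laptm5, also of leukocytes, was at 5.01 and 4.73, against 4.30 and 4.50. The 12 endothelial markers summed to 275 and 240 in p63 KO, against 594 and 360 in wild type, highest on wild type array 1, where H2-Ab1 was also highest. Pecam1 was at 4.63 and 4.29, against 6.94 and 5.67 (adjusted p = 0.155), Egfl7 at 5.65 and 5.41, against 5.72 and 5.68, and Eng at 5.51 and 5.28, against 5.61 and 5.40. Another 6 of the 12, Kdr and Tek among them, were below 5.08 in both groups. The 15 fibroblast and feeder cell markers summed to 5771 and 8070 in p63 KO, against 7734 and 6852 in wild type, with overlapping groups, and only Fap was below 5.08 in both groups. Sparc was at 10.95 and 11.73, against 11.14 and 10.73, S100a4 at 10.02 and 9.33, against 10.18 and 10.95, and Dcn at 8.92 and 9.02, against 10.89 and 9.95. The 10 epithelial markers summed to 4302 and 3764, against 8406 and 8556, with both keratins Krt5 and Krt14 past the test as lower in p63 KO. Krt18 was at 10.73 and 10.63, against 11.30 and 11.32, Krt19 at 9.45 and 8.60, against 10.43 and 10.38, and Cldn4 at 8.38 and 8.52, against 9.53 and 9.23. Of the 10 markers 8 were lower and 2 higher in p63 KO without overlap (80% and 20%, against 20.9% and 36.2% of all clusters). The higher ones were Epcam, at 8.92 and 8.77, against 8.55 and 8.56 (adjusted p = 0.379), and Cldn7, at 9.18 and 8.86, against 8.49 and 8.44 (adjusted p = 0.213). The part of these cell-type differences in the values of interferon and antigen presentation genes was not tested.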

How the data were processed

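The deposited table holds the authors' log2 intensities, 1 value per transcript cluster and array. Log2 is inferred from their range, 0.79 to 13.9. Affymetrix Expression Console, Partek and the build mm9 are named, per the submitters' processing notes; no source used here gives versions, summarisation or normalization. Symbols came from the platform annotation: 14996 clusters had 1 symbol, 1019 several and 7317 none listed. Entrez identifiers of 14941 matched the RefSeq table of GRCm38, changing 0 symbols.

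The test was limma 3.58.1 (R 4.3.3), two-sided, on 4 arrays without a filter, by lmFit and then eBayes, with Benjamini-Hochberg adjustment over 23332 clusters; 2 residual and 2.2 prior degrees of freedom stand behind each test. An exact permutation test of 2 against 2 cannot go below p = 0.33 and was not used. A difference is p63 KO minus wild type; a fold is 2 to that power. All measured members are named; of each other pathway list the called gene, the 3 largest differences without overlap and the gene of highest intensity are named, and of each marker list the 3 of highest intensity, beside defining markers and calls. The cluster of highest mean stands for a gene with several. Promoters in full are those of the 4 largest differences without overlap, where listed (Parp14 has no entry). Members and lists were chosen with earlier results of these data known. On simulated data (10 runs, 200 changed clusters) the fit recovered 70% of log2 changes of 4, 1.94% of 2 and 0% of 1, with 6.68% of calls false. The number of arrays limits the precision.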

Additional observations from a re-analysis of the deposited data

How the results depend on the processing

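In those of the 10 alternatives that kept all 4 arrays, 0 of the measured genes of the list passed (limma). An unadjusted limma p under 0.05 was found for 3 or 4 genes of the list, against 3 as reported. The reported 3 of 32 (9.38%) stood against 5210 of all 23332 clusters (22.3%). After quantile normalization the list had 3 and all clusters 4211, and with an intensity trend in eBayes the list had 4 and all clusters 5164. Mx1 has no value once dim clusters are left out. Of all clusters 123 passed, and the count was 362 after dropping the dimmest clusters (below the 25th percentile), 303 with an intensity trend in eBayes and 0 to 0 when 1 array was left out, which leaves a lone array assumed to vary like the other group. Replicate numbers were shared by the groups, but the labels do not say whether same-numbered arrays belong together. Deviations of same-numbered arrays correlated at 0.019, and with only 2 pairs this cannot show whether they do. The main fit left the arrays unpaired. With the replicate number as a block 0 clusters passed, with 1 residual degree of freedom fewer. Genes without overlap numbered 23 to 26 when 1 array was left out, since fewer values then have to be apart, and 26 without wild type replicate 1. The same share over all clusters was not counted for these fits, so these counts cannot be called a trait of the list. The list's median difference ran from 0.07 to 0.13 over all settings. Relative to the median of all clusters it was -0.04 as deposited and 0.06 without the dimmest clusters. After quantile normalization it was 0.07 and after cyclic loess 0.08. On simulated data with 200 changed clusters, log2 changes of 1 or 2 were mostly missed. The Benjamini-Hochberg cut-off depends on the share of changed clusters, and here 22.3% of all clusters had an unadjusted limma p under 0.05. That recovery therefore cannot be carried over to these data. The intervals and not the calls bound the differences.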

Other observations

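Among the 47 other interferon-stimulated genes, 23 were higher and 14 lower in p63 KO without overlap (48.9% and 29.8%, against 36.2% and 20.9% of all clusters). Examples beyond those named above follow from both sides. These genes were chosen after their values were seen, and none passed the test. Trim30a, a ubiquitin ligase that restrains innate signalling in mice, was at 8.11 and 8.18 in p63 KO, against 6.53 and 7.40 in wild type (log2 difference 1.18, limma adjusted p = 0.171). Ifi203, of the same family as Ifi205, was at 7.38 and 7.53, against 5.82 and 6.53 (log2 difference 1.28, adjusted p = 0.137). Slfn2, a relative of Slfn5, was at 6.04 and 6.37, against 4.95 and 5.35 (log2 difference 1.06, adjusted p = 0.129), on the opposite side of 0 from Slfn5. Cxcl11, a chemokine induced by interferon gamma, was at 4.65 and 5.35, against 3.87 and 3.83 (log2 difference 1.15, adjusted p = 0.15). On the lower side, Slfn9 was at 3.86 and 4.76 in p63 KO, against 4.98 and 5.47 in wild type (log2 difference -0.92, adjusted p = 0.264), and Slfn1 at 4.42 and 4.18, against 4.55 and 5.16 (log2 difference -0.56, adjusted p = 0.318). Ifi30, a lysosomal thiol reductase of antigen processing, was at 6.07 and 5.65, against 6.77 and 6.48 (log2 difference -0.76, adjusted p = 0.188). Rnf213 was at 5.46 and 5.26, against 5.77 and 6.33 (log2 difference -0.69, adjusted p = 0.23).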
